A study of Mus musculus with 4 samples.

Results

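Sall1, Sall3, Sall4 and Zbtb16 are 4 of 21883 protein-coding mouse genes on chromosomes 1 to 19, X and Y, taken by name for their roles in patterning the limb bud. Accessible chromatin around them was mapped by ATAC-seq, in which the Tn5 transposase inserts sequencing adaptors into open DNA. The samples were wild-type fore- and hindlimb cells, with 2 replicates for embryonic day E10.5 and 2 for E11.5, and the protocol names the earlier stage E10. Genotype and tissue were thus the same in both groups, and fore- and hindlimb were not separated. Each stage gave 1 deposited peak list that names both replicates, so there was no spread between replicates, no test between stages and no depth per sample, and the numbers describe these lists. For each gene the regions (peaks) that overlap the gene body or the 100 kb on either side of it were taken, which gave 98 of the 99356 E10.5 regions and 23 of the 37413 E11.5 regions. Coordinates are mm10 and count from 1.

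Sall proteins are zinc finger transcription factors, vertebrate counterparts of Drosophila spalt, that can repress genes by recruiting the NuRD histone deacetylase complex. Sall4 acts with Tbx5 in the early forelimb, Sall1 and Sall3 act in outgrowth and in autopod skeleton, and human SALL1 and SALL4 mutations cause Townes-Brocks and Duane-radial ray syndromes. Zbtb16, also called PLZF, is a BTB zinc finger repressor that works with Gli3 in the proximal limb skeleton, and its loss causes the luxoid mouse phenotype. In human cells, cereblon bound by thalidomide targets both SALL4 and PLZF for degradation.

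Every one of the 4 genes had open chromatin at its start site in both lists. In the E10.5 list all 4 had a promoter region, meaning one within 1 kb of the start site, against 66.2% of 21532 protein-coding genes with a known strand. The E11.5 list also held one for all 4, against 59.9%. The sequence at the Sall1 start sites is shown because these are the letters under the strongest region of the 4 genes. RefSeq gives Sall1 3 start sites on the minus strand of chromosome 8, and each sequence runs from 250 bases before a site to 50 after it, from the RefSeq promoter table of build GRCm38.p6, which has the mm10 coordinates. Capitals mark the GC box GGGCGG, bound by Sp factors, and the CCAAT box, each on either strand. Promoter sequences of Sall3, Sall4 and Zbtb16 were not used here.
Sall1 outer start, chr8:89044113-89044412: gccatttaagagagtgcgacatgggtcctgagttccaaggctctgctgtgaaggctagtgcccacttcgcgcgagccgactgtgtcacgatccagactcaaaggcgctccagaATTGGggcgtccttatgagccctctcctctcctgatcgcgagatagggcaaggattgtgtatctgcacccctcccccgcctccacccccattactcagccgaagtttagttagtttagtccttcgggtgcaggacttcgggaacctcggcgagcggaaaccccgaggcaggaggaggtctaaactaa
Sall1 middle start, chr8:89043463-89043762: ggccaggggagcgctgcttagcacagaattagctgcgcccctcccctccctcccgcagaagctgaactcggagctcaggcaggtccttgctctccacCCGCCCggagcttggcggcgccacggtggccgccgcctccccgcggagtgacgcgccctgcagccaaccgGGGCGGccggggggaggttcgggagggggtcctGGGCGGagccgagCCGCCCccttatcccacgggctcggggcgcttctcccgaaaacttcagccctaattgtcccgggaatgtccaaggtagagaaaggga
Sall1 inner start, chr8:89042813-89043112: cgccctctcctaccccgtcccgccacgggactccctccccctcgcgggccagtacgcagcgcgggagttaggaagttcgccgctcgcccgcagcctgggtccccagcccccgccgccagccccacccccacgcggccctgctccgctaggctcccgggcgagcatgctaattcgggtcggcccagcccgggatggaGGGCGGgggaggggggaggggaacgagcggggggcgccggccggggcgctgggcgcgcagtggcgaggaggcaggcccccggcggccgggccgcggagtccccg

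The 3 Sall1 windows grew richer in G and C from the outer to the inner start. Their GC content was 57.3%, 70.0% and 79.7%, against a median of 52.7% over 32851 promoter windows, and the observed over expected CpG ratio was 0.73, 0.73 and 0.82, against a median of 0.38. The outer window held 1 CCAAT box and no GC box, the middle window held 4 GC boxes, and the inner window held 1. Of all promoter windows, 35.7% held GGGCGG and 37.4% held CCAAT. The letters TATAAA (in 13.6% of windows), AGGTGTGA (core of the T-box site, 1.28%), ACCACCC (core of the GLI site, 4.61%), TAATTA (bound by homeodomains, 5.29%) and AATATT (AT-rich letters bound by SALL4, 6.81%) were in none of the 3 windows on either strand, and the hits that were found did not overlap each other.

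Sall1 had the broadest and strongest promoter region of the 4 genes. At E10.5 a single region of 7067 bp (chr8:89040656-89047722) covered all 3 start sites, with a signal of 21709 in the authors' value per peak. This put it at rank 106 of the E10.5 list. At E11.5 the region over the start sites was 3455 bp wide (chr8:89040939-89044393), with a signal of 4926 and rank 2924. It covered 300 of 300 bases of the middle and inner windows and 281 of the outer one. Both lists placed the summit, the point of highest signal, on the same base, 1353 bp inside the gene from the outer start and 53 bp past the inner start, next to the GC-rich inner sequence above. A pair of smaller E11.5 regions of 513 and 459 bp (chr8:89046182-89046694 and chr8:89046842-89047300, signals 349 and 216) lay 2.28 and 2.91 kb upstream, under the far end of the same E10.5 region. The noncoding RNA gene Gm3134, listed with the synonym Sall1os, runs in the opposite direction from inside this region.

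Of the 4 genes, Sall3 had the promoter region whose width differed least between the lists. It measured 3234 bp at E10.5 (chr18:80985254-80988487, signal 12587, rank 879) and 2761 bp at E11.5 (chr18:80985501-80988261, signal 4694, rank 3273). The summits lay 292 and 294 bp inside the gene, 2 bp apart.

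At Sall4 and Zbtb16 the single E10.5 promoter region stood over 2 separate E11.5 regions. The Sall4 region at E10.5 was 2975 bp wide (chr2:168764443-168767417, signal 8673, rank 2934), and its summit lay 1998 bp inside the gene. At E11.5 one region of 890 bp was at the start site (chr2:168766522-168767411, signal 1081, rank 15102), with its summit 74 bp upstream. The other, of 977 bp (chr2:168765040-168766016, signal 1443), had its summit 1736 bp inside the gene and so fell just outside 1 kb of the start site. The noncoding RNA gene Gm14261, which overlaps Sall4 on the opposite strand, starts between these 2 regions. The Zbtb16 region at E10.5 was 4188 bp wide (chr9:48834464-48838651, signal 9501, rank 2236). At E11.5 it was matched by regions of 1214 bp over the start site (chr9:48835550-48836763, signal 1723, rank 11508) and of 338 bp inside the gene (chr9:48835092-48835429, signal 399, rank 25879). The summits nearest the start were 61 and 87 bp upstream of it at E10.5 and E11.5.

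**Figure D1:**
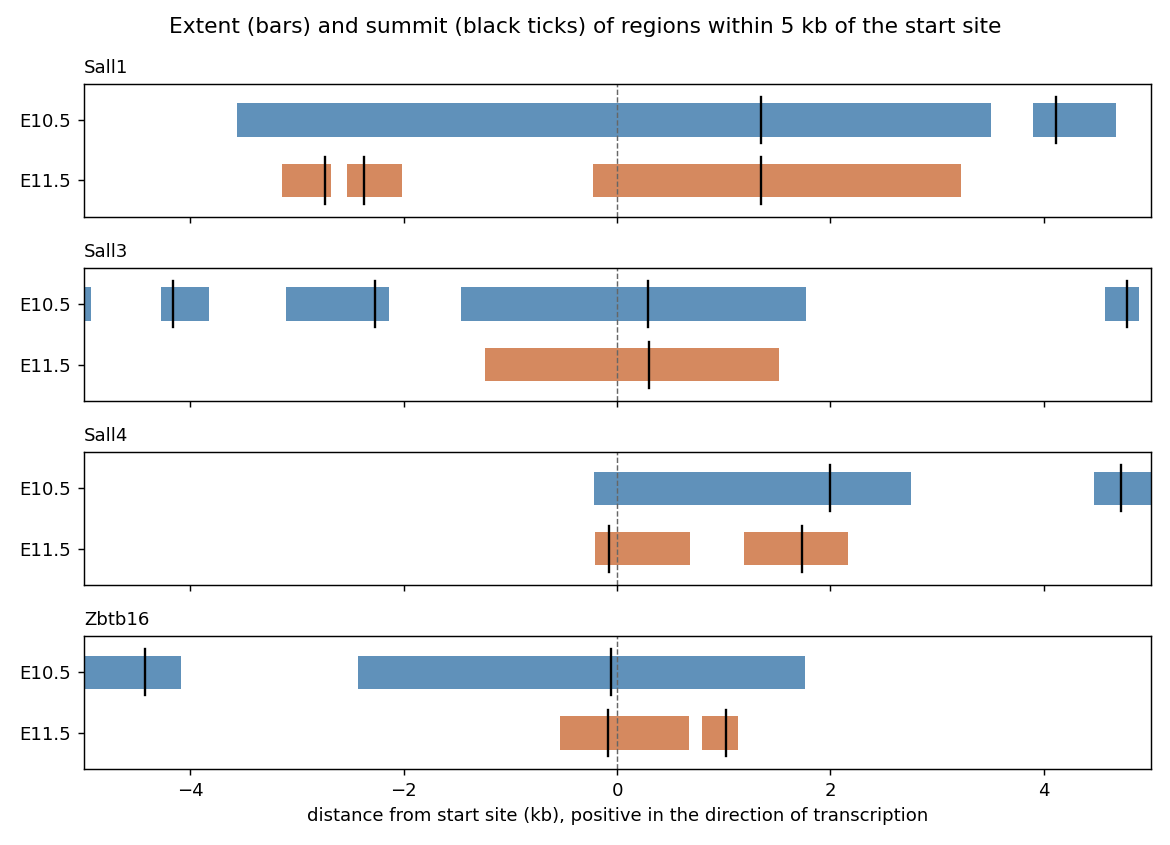
Regions within 5 kb of the start sites of Sall1, Sall3, Sall4 and Zbtb16, as bars from left to right end in kb from the start site, with black ticks at the summits and E10.5 above E11.5 in each panel. The summits of the promoter regions are 0 bp apart between the lists at Sall1 and 2 bp at Sall3, and those nearest the start of Zbtb16 are 26 bp apart. The E10.5 promoter bar stands over 2 shorter E11.5 bars at Sall4 and Zbtb16 and over 3 at Sall1.

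Set among 14010 promoter regions of protein-coding genes at E10.5, the 4 regions were long. Their widths stood at percentiles 99.8 (Sall1), 95 (Sall3), 93.2 (Sall4) and 98.0 (Zbtb16), around a median promoter width of 1424 bp. Their signals stood at percentiles 99.5, 95.9, 86.5 and 89.7 in the same order, and their signals per bp at 55.3, 78.4, 50.7 and 32.4. Among 12489 promoter regions at E11.5 the signals of Sall1 and Sall3 stood at percentiles 80.3 and 77.9, and those of Sall4 at 20.3 and of the larger Zbtb16 region at 31.4. Per bp the same regions stood lower, at 20.2, 29.1, 14.5 and 20.1 for Sall1, Sall3, Sall4 and Zbtb16. The Sall4 value leaves out the E11.5 region of signal 1443 under the same E10.5 promoter region. The lists differ in length, so these percentiles describe each list and show no change.

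The 4 windows differed in how much of their summed signal lay within 1 kb of the gene's start site. At E10.5 the promoter region held 51.1% of the summed signal of the Sall1 window, 35.7% at Sall3, 24.0% at Sall4 and 11.8% at Zbtb16, where the regions covered 18.5, 18.7, 18.6 and 41.2 kb. At E11.5 the shares were 75.3%, 52.1%, 24.6% and 35.9%, from 5.69, 4.66, 3.49 and 4.86 kb. These E11.5 shares leave out regions over 1 kb from the start that lie under the same E10.5 promoter region. Their signals were 1443 at Sall4, of a window sum of 4390, and 349 and 216 at Sall1. The sums also hold start sites of other genes, such as Atp9b near Sall3 (2816 at E11.5) and Atp9a near Sall4 (1303). The mean signal per region was 2829, 1602, 1642 and 2071 at E10.5 and 1308, 1802, 1098 and 656 at E11.5.

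Zbtb16 had the most regions, 39 in the E10.5 list and 9 in the E11.5 list, in the largest window, of 384 kb. Sall3 had 22 and 5 in 220 kb, Sall4 22 and 4 in 219 kb, and Sall1 15 and 5 in 217 kb. Per 100 kb this came at E10.5 to 6.91 regions for Sall1 and 10.1 for both Sall4 and Zbtb16, against a median of 5.17 over the windows of all protein-coding genes. Sall1, Sall3, Sall4 and Zbtb16 had 2.30, 2.27, 1.83 and 2.34 regions per 100 kb at E11.5, against a median of 2.30. In density Sall3, Sall4 and Zbtb16 thus stood at percentiles 83.1, 83.3 and 83.7 of all genes in the E10.5 list and Sall1 at 64.6. In the E11.5 list Sall3, Sall4 and Zbtb16 stood at 49.3, 40.5 and 50.8.

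**Figure D2:**
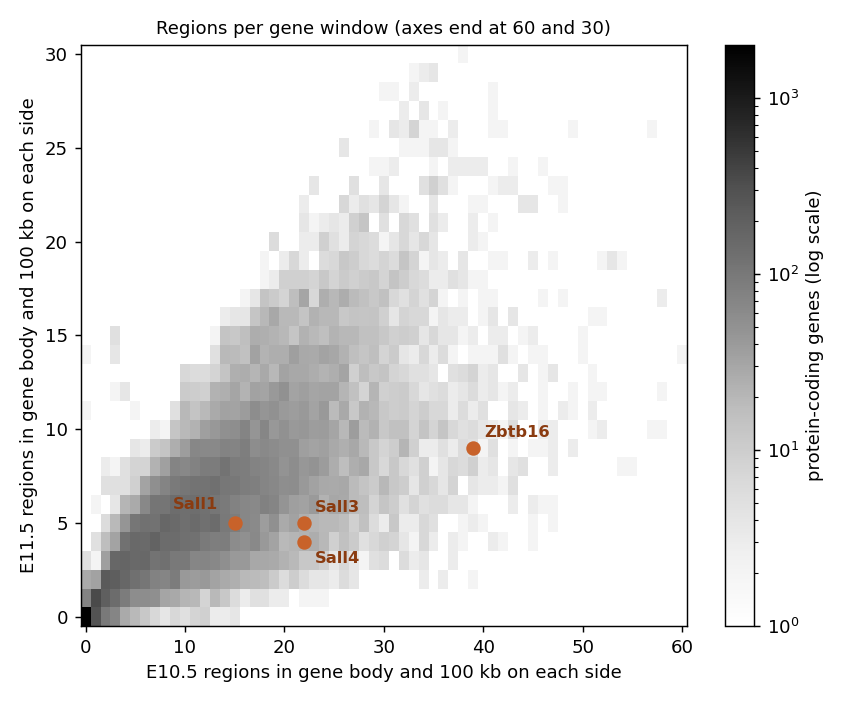
Number of E10.5 regions (x axis) and E11.5 regions (y axis) in the gene body and 100 kb on each side for protein-coding genes, in grey by number of genes, with the 4 genes in orange. Zbtb16 has 39 and 9 regions, and Sall3 and Sall4 with 22 E10.5 regions and 5 and 4 E11.5 regions lie low in the grey cloud.

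Every E11.5 region of the 4 genes overlapped an E10.5 region, as did most of the whole E11.5 list. Most of their E10.5 regions overlapped no E11.5 region, which also held for the whole E10.5 list. An overlap of at least 1 bp with the E10.5 list was found for 23 of 23 E11.5 regions, against 91.8% of the whole list, and the 0 of 23 without overlap allows a share of up to 13.0%. In the other direction 19 of 98 overlapped (19.4%, 95% Wilson interval 12.8 to 28.3%), against 32.3% of the whole list. The interval covers counting error only and treats neighbouring regions as independent. By gene the numbers were 3 of 15 for Sall1, 5 of 22 for Sall3, 3 of 22 for Sall4 and 8 of 39 for Zbtb16. With the E10.5 list reduced to the 37413 regions of highest signal, 37 regions of the 4 genes remained and 19 of them overlapped (51.4%), against 68.9% of the reduced list.

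**Figure D3:**
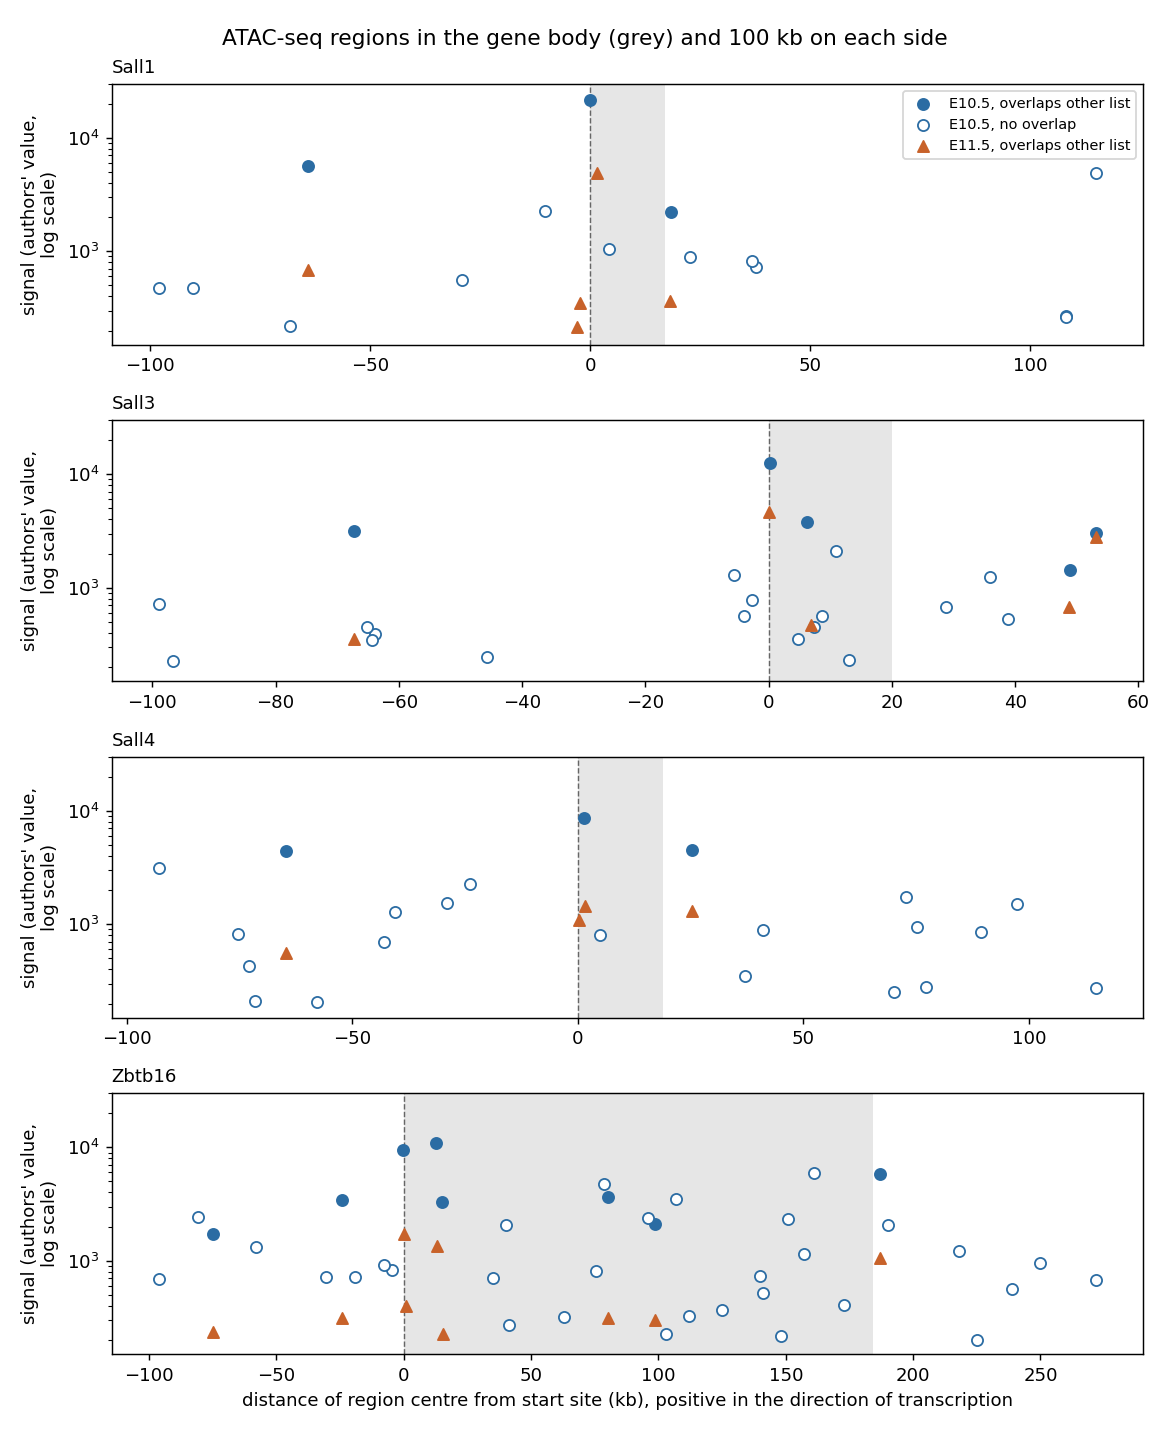
Signal of each region (log axis) against the distance of its centre from the start site in kb, 1 panel per gene, with the gene body in grey; circles are E10.5 regions, filled where they overlap an E11.5 region, and triangles are E11.5 regions. Every triangle stands for a region that overlaps one of the filled circles, and open circles, the regions in the E10.5 list only, are spread over all 4 windows.

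Overlap was more frequent at higher signal across the whole list, so the distal regions, those over 1 kb from any protein-coding start site, were read by decile of E10.5 signal. The 4 genes had 91 such regions at E10.5, and 12 of them overlapped an E11.5 region (13.2%), against 23.5% of 85346 distal regions in the list. Their median signal of 772 (Sall1), 566 (Sall3), 836 (Sall4) and 918 (Zbtb16) stood beside 703 for all distal regions. In deciles 1 to 8 the overlap was 3 of 77 (3.90%, interval 1.33 to 10.8%), against 15.8%. By gene this was 1 of 12 for Sall1, 1 of 18 for Sall3, 0 of 18 for Sall4 and 1 of 29 for Zbtb16. In decile 9 it was 6 of 10, against 71.7%, and in decile 10 it was 3 of 4, against 92.1%.

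**Figure D4:**
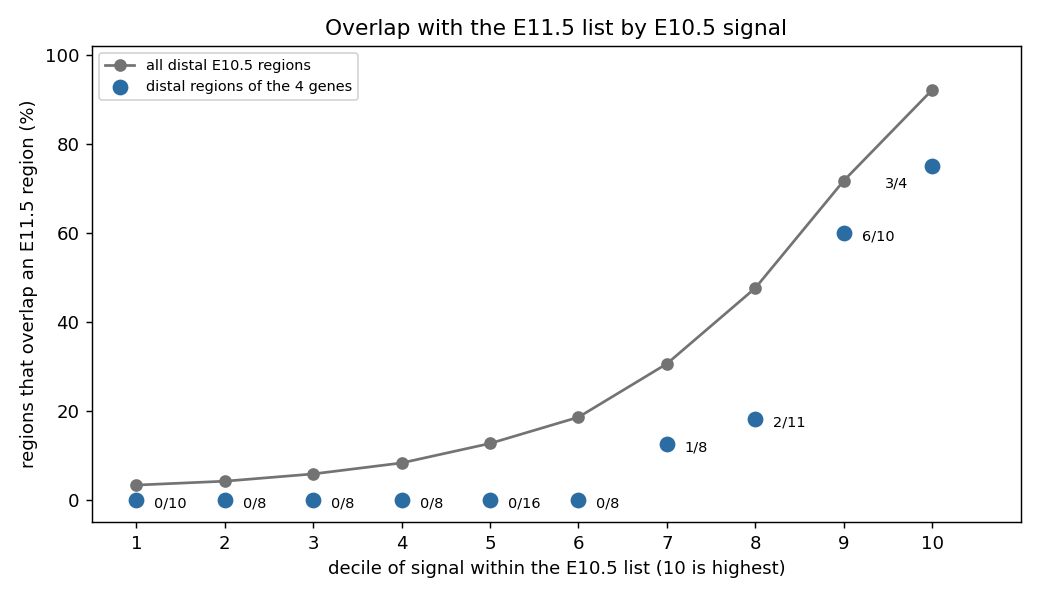
Percentage of distal E10.5 regions that overlap an E11.5 region (y axis) by decile of signal within the E10.5 list (x axis), for all distal regions (grey line) and for those of the 4 genes (blue points, with number overlapping and number in the decile). The blue points reach 6 of 10 in decile 9 and 3 of 4 in decile 10 and lie below the grey line in each decile.

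Where a region was in both lists, the E11.5 region was usually the narrower one, and in most pairs, though not all, the summits lay close together. Its width was a median of 29.9% of the E10.5 partner's over the 23 pairs, against 60.5% over 34604 pairs in the lists, and 1 of the 23 was wider than its partner, the one at the start of Atp9b near Sall3 (122%). With a 50% reciprocal overlap 4 of the 23 were matched, against 53.8% of the E11.5 list. Summits lay within 100 bp of each other for 15 of 23, against 70.6%, and the median distance was 33 bp, against 27 bp over all pairs. Of 5 pairs with summits over 1 kb apart, 4 lay under the broad E10.5 promoter regions of Sall1, Sall4 and Zbtb16, each of which held more than 1 E11.5 region.

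Around Sall1, 2 distal regions away from the promoter were in both lists. The stronger, 64.1 kb upstream in the noncoding RNA gene Gm35358, had a signal of 5686 at E10.5 (chr8:89107415-89109154) and 684 at E11.5 (chr8:89107892-89108572), with summits 33 bp apart. The second, 18.3 kb from the start and just past the gene's other end, had signals of 2198 (chr8:89025232-89026564) and 366 (chr8:89025648-89026227). A region in the E10.5 list only (chr8:88928250-88929772) had a signal of 4843, between the 5686 and 2198 of these 2. It stood at percentile 89.7 of the E10.5 list and was 95.9 kb from the nearest E11.5 region. Next by signal in the E10.5 list only were regions 10.3 kb upstream (chr8:89053737-89055122, signal 2255) and in the gene body (chr8:89039488-89040267, signal 1055, percentile 56.9). No other protein-coding gene lay in the Sall1 window.

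At Sall3 the distal region of highest E10.5 signal was inside the gene, 6.21 kb from the start, with 3809 in that list (chr18:80980030-80981592) and 474 in the E11.5 list (chr18:80980069-80980332). A region 67.3 kb upstream had signals of 3166 (chr18:81053569-81055085) and 350 (chr18:81054110-81054393), with summits 9 bp apart. The start site of the neighbouring gene Atp9b, which encodes a P-type ATPase, was open in both lists, with signals of 3041 (chr18:80933370-80934230) and 2816 (chr18:80933349-80934395). A region in the E10.5 list only, with a signal of 2127, lay inside Sall3 at chr18:80975588-80976696, 3.37 kb from the nearest E11.5 region. A pair beside Atp9b had a lower E10.5 signal than the other shared regions, 1431 (chr18:80937707-80938570), and an E11.5 signal of 678 (chr18:80938098-80938403), above those of the regions 6.21 and 67.3 kb from the start.

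Sall4 had 1 distal region away from other start sites in both lists. It lay 64.7 kb upstream between genes, with signals of 4429 (chr2:168831061-168832642) and 563 (chr2:168831659-168832093), and its summits were 1 bp apart. The start site of Atp9a, a paralog of Atp9b, had signals of 4535 (chr2:168740881-168742897) and 1303 (chr2:168741199-168742389). The 3 next strongest were in the E10.5 list only, at 93.0 kb upstream (chr2:168859762-168860611, signal 3112), 24.0 kb upstream (chr2:168790757-168791680, signal 2282) and 72.7 kb downstream of the start (chr2:168693963-168695038, signal 1747). The first of these had a −log10 p of 9.34, above the 9.01 of the Sall4 promoter region, and lay 27.7 kb from the nearest E11.5 region.

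In the E10.5 list the Zbtb16 region of highest signal was not at the promoter, while in the E11.5 list it was. The E10.5 region lay 12.6 kb inside the gene (chr9:48822244-48825029), where the E10.5 list gave a signal of 10920 and 14.54 for −log10 p, and its E11.5 counterpart (chr9:48822790-48823579) had a signal of 1344, below the 1723 of the promoter, and a summit 3 bp away. By the other measures this E11.5 counterpart stood above the E11.5 promoter region, with −log10 p of 7.02 against 5.72 and signal per bp of 1.70 against 1.42. The contrast between the lists thus holds for the signal value only. A pair with lower signals, 3272 and 228, lay 15.0 kb inside the gene (chr9:48820410-48821977 and chr9:48820672-48821134). Just downstream of the gene, 187 kb from the start, a pair had signals of 5787 (chr9:48647425-48650123) and 1054 (chr9:48648965-48649786), with summits 1333 bp apart. Further shared regions lay at 80.2 kb inside the gene (signals 3664 and 312, chr9:48755287-48756729 and chr9:48755780-48756007) and at 98.7 kb inside it (2120 and 302, chr9:48736873-48738211 and chr9:48737574-48737794). Another lay 24.2 kb upstream (3465 and 310, chr9:48859900-48860982 and chr9:48860373-48860759). At the start of the serotonin receptor gene Htr3a the signals were 1717 (chr9:48910696-48911464) and 235 (chr9:48910891-48911282).

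Zbtb16 also held the strongest region of the 4 genes that was in the E10.5 list only. It lay 161 kb inside the gene and over the end of the predicted protein-coding gene Gm32280 (chr9:48673989-48675880), with a signal of 5897 at percentile 92.6, and the nearest E11.5 region was 24.2 kb away. This is the 1 of 4 in decile 10 without overlap. The next, with a signal of 4726 (chr9:48756898-48758628), lay beside the shared region at 80.2 kb, 0.891 kb from the nearest E11.5 region. Of the 39 Zbtb16 regions at E10.5, 22 lay in the gene body away from the promoter, and 4 of the 9 at E11.5 did. The gene body makes up 184 kb of the 384 kb window, and whether regions were denser inside it was not tested. Exons and introns in mm10 were not used here.

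Sall2, the remaining family member, stood apart at its outer start site. There it had a weak E10.5 region (chr14:52327481-52327793, signal 322) and none at E11.5. At its inner RefSeq start site a strong region was in both lists, with signals of 5055 (chr14:52314769-52317196) and 2679 (chr14:52315299-52316789).

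The lists of limb patterning, corepressor and cereblon ligase genes are given beside the shares over all protein-coding genes, 66.2% in the E10.5 list and 59.9% in the E11.5 list. Of 31 limb patterning genes, the E10.5 list held a promoter region for 31 and the E11.5 list for 27. The 4 in the E10.5 list only were Fgf8, Hoxd11, Sall2 and Tbx5, the last of which acts upstream of Sall4 in the forelimb. These calls are for the outer start site of each gene, and Sall2 had a region in both lists at its inner one. Gli3, which works with Zbtb16, had signals of 15970 and 10604. Of the 11 NuRD subunits, 11 had a promoter region in each list, as did the 5 corepressor genes of Zbtb16. Of 5 cereblon ligase genes 4 had one at E10.5 and 5 at E11.5, with Cul4b at E11.5 only (signal 204), and Crbn, which encodes cereblon, had signals of 2195 and 3566. In numbers of regions per window over the 2 lists, the limb genes closest to Sall1 were Fgf10, Grem1 and Msx2, those closest to Sall3 were Etv4, Msx2 and Irx5, those closest to Sall4 were Irx5, Etv4 and Irx3, and those closest to Zbtb16 were Msx1, Ptch1 and Alx4. Closeness was the Euclidean distance in log2(number + 1), which ran from 0.06 to 0.45 for these genes.

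Markers of limb mesenchyme had a promoter region for 6 of 6 genes in both lists. The share over all protein-coding genes was 66.2% in the E10.5 list and 59.9% in the E11.5 list, and with lists this short several counts lie near it. Markers with a promoter region in the E10.5 and in the E11.5 list were 5 and 4 of 6 for ectoderm, 3 and 1 of 5 for endothelium, 4 and 2 of 4 for muscle precursors, and 4 and 2 of 4 for nerve and glia. Of the 4 markers of pluripotent and germ cells, which also use Sall4, 0 had one in either list. Of the blood genes, Klf1 and Tal1 had one in both lists (signals 4885 and 2495, and 845 and 2779), Hbb-bt in the E11.5 list only (239) and Gata1 in neither. In the E10.5 list only were Wnt7a of ectoderm (signal 3300), Cdh5 and Tie1 of endothelium (386 each), Myf5 and Pax3 of muscle precursors (2065 and 1062), and Elavl3 and Sox10 of nerve and glia (529 and 246). Of the limb genes above in that list only, Hoxd11 had a signal of 23028, Fgf8 of 2637 and Tbx5 of 1769. The E10.5 promoter region of Hoxd10 had the same signal of 23028, and Hoxd10 had a promoter region in the E11.5 list too (3012). In a mixture of cells, fewer cells of a type and less accessible DNA per cell cannot be told apart, and the part of cell composition in the values above was not tested.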

How the data were processed

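Limb cells of 4 wild-type samples were fixed before tagmentation, per the labels' protocols, and were represented by 2 narrowPeak lists on mm10, per the file headers. Cutadapt, Bowtie2, SAMtools, deepTools and Genrich are named, without settings, in the submitters' processing notes, and how the replicates were joined, whether read ends were moved for Tn5, and any scaling between lists are not given in the sources used here. The deposited signal value and the deposited −log10 p-value of each peak were used to describe and rank peaks within a list. Smallest deposited signals were 200 in each list, and depth per sample is unknown. Peaks on chromosomes 1 to 19, X and Y entered (99356 of 99427 and 37413 of 37548).

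Gene positions came from RefSeq on GRCm38.p6. Strand came from the RefSeq promoter table, as for Sall1, or by symbol from GENCODE M1, as for the other 3 genes (21532 of 21883 protein-coding genes). The sources agreed on strand for 99.7% of 16264 genes in both. The start site is the outer end by strand. Overlap needs 1 bp, and code was tested on regions drawn from the E10.5 list and then trimmed or moved (pandas 2.3.3, SciPy 1.17.1). The 4 genes and the gene lists were chosen with earlier results of these data known. Named are all promoter regions, the 5 distal regions of highest signal per gene and list, and listed genes with a promoter in 1 list only. The grouping of deciles 1 to 8 and the deciles of −log10 p were added after seeing the data. Alternatives changed the overlap rule, threshold, number of regions, window, promoter distance, ranking measure and promoter window length. One blood marker, and so the count over that list, is not reported here.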

Additional observations from a re-analysis of the deposited data

How the results depend on the processing

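No paired analysis was possible because the 2 replicates of a stage share 1 peak list, which also means that none could be left out. The number of regions follows the depth and the threshold, and depth is unknown. The 4 genes had a promoter region in each list under each of the alternatives run for it, and the share of E11.5 regions overlapping stayed at 100% except under stricter overlap. With 50% reciprocal overlap it was 17.4%, and 4.08% for E10.5 regions. With summits within 100 bp it was 65.2%. A minimum −log10 p of 5 left 55 and 9 regions. At matched number there were 37 E10.5 regions by signal, with 51.4% overlapping, and 38 by −log10 p, with 50%. A window of 50 kb held 65 E10.5 regions, and one of 200 kb held 156 and 35. Each alternative lets fewer or more regions, or pairs of regions, count. By deciles of −log10 p, chosen after seeing the data, 5.19% of the 77 lower distal regions overlapped, against 14.8% of all, and 8 of 14 in deciles 9 and 10, against 83.7%. Ranked by −log10 p or by signal per bp, 3 of 16 promoter percentiles stayed within 5 points of those by signal. The lowest was 75.0 in the E10.5 list (Zbtb16, per bp) and 35.8 in the E11.5 list (Sall4, per bp), and the cause was not tested. In the last 100 bases of the Sall1 windows 2 GC boxes remained of 5.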

Other observations

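Sall1, Sall3 and Sall4 each had a region in both lists at a like distance upstream of the start site, 64.1, 67.3 and 64.7 kb away, with E10.5 signals of 5686, 3166 and 4429 and E11.5 signals of 684, 350 and 563. The summits of each pair were 33, 9 and 1 bp apart. These were singled out after their values were seen, the likeness of the distances was not tested, and sequences at these regions were not used here.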
